A study of Mus musculus with 9 samples.

Results

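Axon guidance ligand and receptor genes were examined for binding of the glucocorticoid receptor (GR) and the mineralocorticoid receptor (MR) in N2A cells, a mouse neuroblastoma line. The genes were chosen by symbol and comprised the Slits and their Robo receptors, the netrins with Dcc, neogenin (Neo1) and Unc5a to Unc5d, the semaphorins with the plexins and neuropilins, and the ephrins with the Eph receptors. There were 70 such members among 21938 protein-coding genes, 35 ligands and 35 receptors. A peak belonged to a member when its summit fell inside the gene or no more than 5 kb away.

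The cells had been transiently transfected with EGFP-GR and mCherry-MR together, so that every sample held both receptors, and the samples differed in the tag that was precipitated and in the treatment. GR was recovered with an antibody to GFP and MR with an antibody to RFP. The treatments were vehicle, 100 nM corticosterone (CORT) for 20 min, and the same CORT exposure followed by 2 washes and 40 min without steroid, called washout here, and input chromatin was sequenced for each treatment. The deposited description names mouse receptors, whereas the methods of the study describe rat ones. N2A cells have no MR of their own and some endogenous GR, and the cells are those of 1 line. The assay was ChIP-nexus, in which precipitated fragments are cut back by an exonuclease to the edge of the bound protein and then sequenced. RNA was not part of these files, so the cell type could not be checked against marker genes, nor could it be said which members were transcribed.

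Each condition had 3 replicates, which had been combined into 1 list of peaks before deposit. The lists do not show which peaks recur in single replicates. No spread between replicates and no test between conditions can therefore be given, and the 95% Wilson intervals below cover counting error only. The lists held 64 GR and 73 MR peaks after vehicle, 10602 GR and 14638 MR peaks after CORT, and 246 GR and 4885 MR peaks after washout. Peak strength is given as the −log10 p of the peak caller against input. It grows with sequencing depth, which the files do not give. It is used to rank peaks, to form strength classes and to give medians within a list. Values from different lists are printed side by side but are not on a common scale.

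Guidance cues are secreted or membrane-bound proteins that attract or repel a growing axon, and the receptors on its growth cone turn them into changes of the cytoskeleton. Slits act through Robo receptors, netrins through Dcc and Unc5 receptors, semaphorins through plexins with neuropilins as co-receptors, and ephrins through the Eph receptor tyrosine kinases. GR and MR are steroid-activated transcription factors that share a DNA element, the glucocorticoid response element (GRE), a palindrome of 2 arms spaced by 3 bases.

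The members with a GRE within 100 bp of the MR summit of a site that both receptors shared after CORT are shown first. Each is shown by the strongest such site, to give the sequences that the receptors met. The consensus searched for was AGAACA and TGTTCT with any 3 bases between them, which reads the same on both strands, and a GRE was called where no more than 3 of these 12 bases differed, up to 100 bp from a summit. Each line holds the plus strand of GRCm38 from NCBI RefSeq with the arms of the element in capitals. The lines are in order of strength, by the GR and MR peak ranks added together. The order runs from the strong site of Efna5 down to those of Epha10 and Ephb3, where the GR peaks stood at −log10 p 8.51 and 6.00.
Efna5, chr17:62734754-62734782, intron, 2 mismatches: aactctcTGAGCAgtaTGTTCTgtaactc
Sema6b, chr17:56120018-56120046, downstream, 2 mismatches: ttctgtgAGAACAtctTGTTTCggttggc
Slit3, chr11:35477862-35477890, intron, 3 mismatches: ctaatgaAGGACAacaTGAACTctccagc
Plxna4, chr6:32479624-32479652, intron, 3 mismatches: tggatgaAGAACAagcAGTGCCaagcatt
Ntn5, chr7:45680932-45680960, upstream, 2 mismatches: agaggctGGAACAggcTGTGCTtacacag
Unc5c, chr3:141827335-141827363, intron, 3 mismatches: caggccaGGAAGAgacTGTCCTtcttgaa
Slit1, chr19:41671033-41671061, intron, 3 mismatches: aacatacAGCACAtccTGTCCAtcttcag
Epha10, chr4:124882583-124882611, intron, 3 mismatches: tgcgcttGGAACTgtaTGTTCAgttgaat
Ephb3, chr16:21219590-21219618, intron, 3 mismatches: tgcttctAGTACAactTGTCCCctgagct
None of these 9 matched the consensus at every position. A shared site of Sema4d had a GRE with 3 mismatches near its GR summit and none near an MR summit, and is not printed.

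The strongest shared sites of Ntn5, Unc5b, Slit3 and Slit1 held no GRE by this definition. Their closest match, with 4 mismatches in each, is printed for comparison, and where 2 positions matched equally well, at Slit3 and Slit1, the match nearer to the MR summit is shown.
Ntn5, chr7:45680204-45680232: gtggcagGGGACAatcAGTTCCtgaaagc
Unc5b, chr10:60796078-60796106: aggggacATAACTgccTCATCTgctttgc
Slit3, chr11:35596640-35596668: gaggccgAGGACAggaAGTCCCtgattca
Slit1, chr19:41697613-41697641: ctggaccAGCACGctcAGTTCCtcaccca
The closest matches to the consensus at any member, with 1 mismatch, lay instead under peaks of 1 receptor that were at or below the median strength of their list. They were at Ntn1 under a GR peak of −log10 p 7.38, at Plxnc1 under an MR peak of 9.17 and at Sema6d under an MR peak of 7.42.
Ntn1, chr11:68379706-68379734: gacaatcAGAACAccaCGTTCTccatcaa
Plxnc1, chr10:94830964-94830992: ggactcaAGAACAgttTGTGCTcatcagc
Sema6d, chr2:124287033-124287061: agggaacATAACAcctTGTTCTtatgttc

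Without hormone, no member had a peak of either receptor. The GR vehicle list reached 0 of 70 members against 0.0820% of all protein-coding genes, and the MR vehicle list 0 of 70 against 0.0775%, and a count of 0 allows up to 5.20% of members. After CORT, 27 members had a peak of either receptor, or 38.6% (28.0 to 50.3), against 24.0% of all protein-coding genes and 35.5% of genes of the same lengths. GR peaks were listed at 24 members, or 34.3% (24.2 to 46.0), where 17.7% of all protein-coding genes had one. MR peaks were listed at 25 members, or 35.7% (25.5 to 47.4), against 20.5% of all genes. Members are longer than most genes, and a long gene meets more peaks by its length alone. For the shares by length each member was set beside the protein-coding genes of its own length class, with 20 classes of equal size. Genes of the same lengths had a GR peak in 27.1% and an MR peak in 31.9% of cases, both inside the members' intervals. At equal length the number of members with a peak was thus within counting error for either receptor.

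After washout the receptors parted at these genes as they did over the whole lists. GR peaks were listed at 0 members, with 0.670% of all genes and 1.31% of genes of the same lengths, which corresponds to 0.919 members. MR peaks were listed at 18 members, or 25.7% (16.9 to 37.0), against 9.41% of all genes and 18.0% of genes of the same lengths. Depth and list length decide which weak peaks are listed, so a peak that is not listed is not evidence of no binding.

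**Figure D1:**
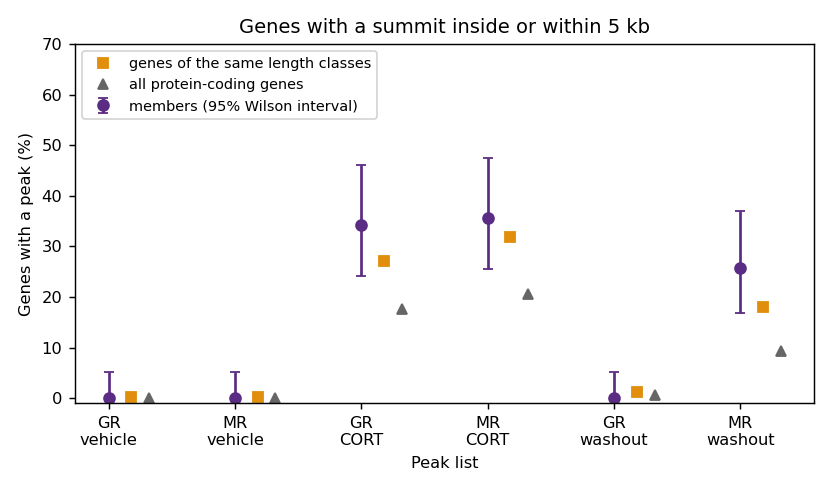
Percentage of genes with a summit inside or within 5 kb (vertical axis) in each of the 6 peak lists (horizontal axis). Circles are the 70 members with 95% Wilson intervals, squares the protein-coding genes of the same length classes and triangles all protein-coding genes; the squares of both CORT lists lie within the members' intervals.

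Of the 28 members with any peak, 16 were in the GR CORT, the MR CORT and the MR washout list. These were the ligands Slit1, Slit2, Slit3, Ntn5, Sema4c, Sema4d, Sema6b and Efna5 and the receptors Unc5b, Unc5c, Nrp1, Nrp2, Plxna4, Plxnc1, Plxnd1 and Epha10. A further 6 members, Ntn1, Sema4b, Sema6d, Unc5a, Plxna1 and Ephb3, had peaks of both receptors after CORT and none after washout. After CORT, 24 members had a GR peak, 25 an MR peak and 27 either, beside 3875, 4495 and 5276 of all protein-coding genes. The other members with a peak were listed for 1 receptor. Efnb2 and Ntn3 had a GR peak, Epha1 and Sema3g had an MR peak, and Sema6a had MR peaks after CORT and after washout. Sema5b, a transmembrane semaphorin, had a peak in the MR washout list and in no other, at a −log10 p of 7.05 in an intron.

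**Figure D2:**
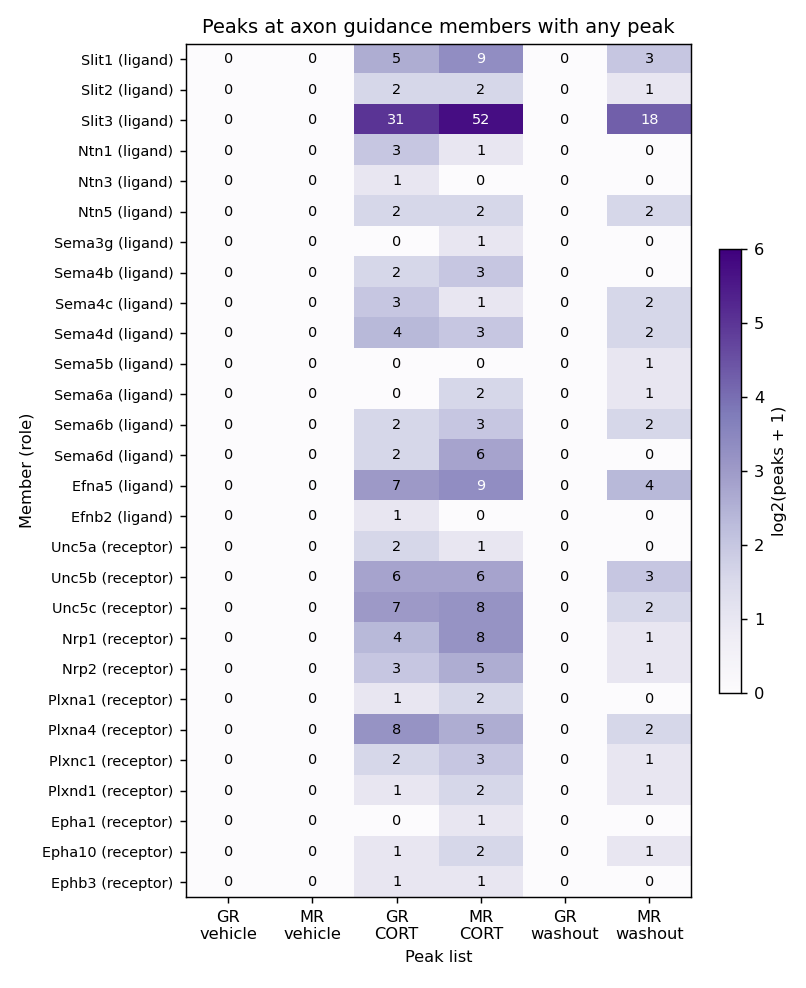
Number of peaks (printed in each cell, shaded by log2 of the number plus 1) at the 28 members with any peak (rows, ordered by family, ligands first) in the 6 lists (columns). The vehicle columns and the GR washout column are 0 throughout, and Slit3 holds the highest number in each of the other lists.

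The members with peaks were spread unevenly over the families. All 3 Slits had a CORT peak of either receptor, where genes of their lengths would give 1.55, while 0 of 4 Robo receptors did, with 1.48 by length. Both neuropilins had one, against 0.974 by length, as did 3 of 4 Unc5 receptors against 1.78 and 3 of 4 netrins against 1.26. Neither Dcc nor neogenin did, with 1.02 by length. Among the largest families, 7 of 20 semaphorins had a CORT peak against 6.80 by length, and 4 of 9 plexins against 3.03. The ephrin and Eph genes together had 5 of 22, against 6.93 by length, and of the 9 EphA receptors only Epha1 and Epha10 were among them. By role, 15 of 35 ligands and 12 of 35 receptors had a CORT peak, with 11.3 and 13.5 by length. The receptor genes were longer, with a median of 115 kb against 29.0 kb for ligands, and had fewer peaks, 36 GR and 44 MR after CORT against 65 and 94. This difference in number of peaks rested on Slit3, without which the other 34 ligands held 34 GR and 42 MR peaks. The ligands, Slit3 included, span 4.43 Mb in total and the receptors 7.57 Mb, so similar numbers are not similar densities. Families are small and these counts were not tested.

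The members that had no peak in any list were 42. They were Robo1, Robo2, Robo3, Robo4, Dcc, Neo1, Unc5d, Ntn4, Plxna2, Plxna3, Plxnb1, Plxnb2, Plxnb3, Sema3a, Sema3b, Sema3c, Sema3d, Sema3e, Sema3f, Sema4a, Sema4f, Sema4g, Sema5a, Sema6c, Sema7a, Efna1, Efna2, Efna3, Efna4, Efnb1, Efnb3, Epha2, Epha3, Epha4, Epha5, Epha6, Epha7, Epha8, Ephb1, Ephb2, Ephb4 and Ephb6. Some of the longest members were among them. The netrin receptor Dcc spans 1097 kb, Epha6 952 kb, the Slit receptor Robo1 738 kb, Unc5d 573 kb and Robo2 520.0 kb. Over 200 kb, 6 of 18 members had a CORT peak, or 33.3% (16.3 to 56.3), against 528 of 998 protein-coding genes, or 52.9%. By length classes these members would give 53.1%, inside the interval. Of the shorter members 21 of 52 had one, or 40.4% (28.2 to 53.9), against 22.7% of all shorter genes and 29.3% by length classes, also inside the interval.

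The distance from these genes to the closest CORT summit varied widely. It was 5.17 kb for neogenin, just outside the 5 kb limit, 14.4 kb for Epha6 and 61.7 kb for the semaphorin receptor Plxna2. It was 689.9 kb for Dcc, 1772 kb for Robo2, 3137 kb for Robo1 and 4602 kb for the secreted semaphorin Sema3e. Robo1, Robo2 and several class 3 semaphorins thus had no CORT summit of either receptor within 1000 kb. Just inside the limit, the farthest summit outside a gene was a GR summit 4826 bp from Sema4d. Of the CORT summits counted for members, 13 of GR and 16 of MR lay outside the gene and within 5 kb, and 1 and 7 more lay between 5 and 10 kb.

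**Figure D3:**
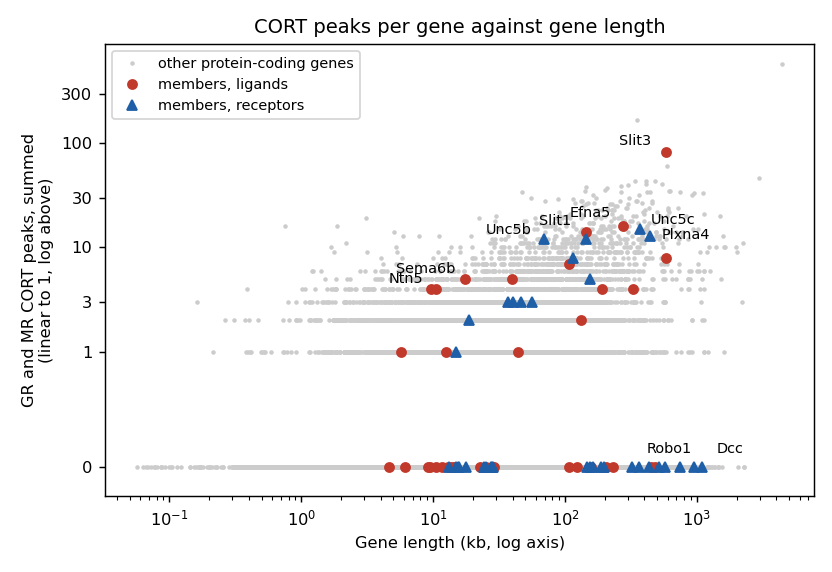
GR and MR CORT peaks of each protein-coding gene, summed (vertical axis, linear to 1 and logarithmic above), against gene length in kb (logarithmic axis). Grey points are other genes, circles are ligands and triangles are receptors; Slit3 with 83 peaks stands above all other members, and Robo1 and Dcc lie at 0 despite their length.

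Members carried 101 GR and 138 MR peaks after CORT, where the mean of their length classes would give 63.7 and 90.5. The MR washout list had 48 against 30.2, and the GR washout list 0 against 1.62. Slit3 held a large part of them. It encodes a secreted ligand of Robo receptors and lies at chr11:35121224-35708507. Slit3 had 31 GR CORT peaks, 52 MR CORT peaks and 18 MR washout peaks, and none in the GR washout list or the vehicle lists. Genes of its length class, the 1096 of at least 186 kb, averaged 2.07, 3.01 and 1.02. Its 83 CORT peaks were 34.7% of all CORT peaks at members, and 2 protein-coding genes had more, Gse1 with 167 and Gm20388 with 573, an annotated gene of 4435 kb that contains Gse1. Both were named after their values were seen. Without Slit3 the other 69 members held 70 GR CORT, 86 MR CORT and 30 MR washout peaks, where their length classes would give 61.7, 87.5 and 29.2, so that most of the surplus of peaks over the length classes was at this gene. Input chromatin had 1 border pair at Slit3, after washout, and none after vehicle or CORT.

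Slit3 peaks were absent from the first part of the gene. The first GR summit lay 152 kb and the first MR summit 161 kb downstream of the start, and the last CORT summits 572 and 548 kb. The stretch from 400 to 500 kb held 12 of the GR, 28 of the MR and 11 of the MR washout peaks. Neighbouring summits were a median of 4.32 kb apart for GR and 2.13 kb for MR. Its strongest shared site was intronic, 475 kb from the start, with a GR peak of −log10 p 20.3, an MR peak of 26.2 whose summit was at the same base, and an MR washout peak of 14.7. Most Slit3 peaks were much weaker, with medians of 9.99 for GR and 9.17 for MR. At Slit3, 22 of 31 GR peaks overlapped an MR peak, or 71.0% (53.4 to 83.9), and 17 of 52 MR peaks overlapped an MR washout peak, or 32.7% (21.5 to 46.2).

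The other Slits had fewer peaks. Slit1 had 5 GR and 9 MR CORT peaks in 143 kb, where its length class averaged 1.00 and 1.43, and 3 MR washout peaks. Its strongest site lay in an intron 46.1 kb from the start, with a GR peak of 16.7, an MR peak of 29.9 and an MR washout peak of 13.6. Slit2 had 2 CORT peaks of each receptor in 325 kb, where its class averaged 2.07 for GR and 3.01 for MR, and 1 MR washout peak. A site of Slit2 199 kb from the gene start, close to the start of an annotated inner transcript, was shared by GR at 8.76 and MR at 5.85.

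Netrins had few peaks. The strongest GR peak of any member was near Ntn5, a small netrin gene of 10.5 kb, at chr7:45680073-45680301. Its −log10 p was 32.4, rank 56 among the 10602 GR peaks. The MR peak there was 28.6 after CORT and 26.6 after washout, rank 115 of 4885, and the CORT summits lay 5 bp apart. A second shared site of Ntn5 stood at 10.9 for GR, 15.9 for MR and 11.3 for MR after washout, and both sites lay upstream of Ntn5 and inside its neighbour Sec1, so that either gene could be named for them. Ntn1, the founding vertebrate netrin, had 3 GR peaks and 1 MR peak, no 2 of which overlapped, and none after washout.

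Among semaphorins the class 4 and class 6 members, which span the membrane, had most of the peaks. Sema6d had 2 GR and 6 MR CORT peaks in 578 kb, against 2.07 and 3.01 in its length class, and 1 shared site. Sema4d, a ligand of B-type plexins, had 4 GR and 3 MR CORT peaks and 2 MR washout peaks. Its strongest site lay 15.8 kb inside the gene within 1 kb of an inner transcript start, with a GR peak of 23.4, an MR peak of 18.0 and an MR washout peak of 11.8. Sema6b had 2 GR, 3 MR and 2 MR washout peaks around a gene of 17.3 kb. The strongest of them was downstream, at 23.6 for GR, 20.2 for MR and 11.1 after washout, and lay inside the neighbouring gene Lrg1. Sema4b had 2 GR and 3 MR CORT peaks, the highest of 11.4, and none after washout. Sema4c had a shared site at its promoter, with 16.4 for MR and 10.2 for MR after washout, at which GR also had a peak. Of the 7 class 3 semaphorins, the secreted ones, only Sema3g had a CORT peak, an MR peak of 13.4.

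The ephrin ligand Efna5 was second to Slit3 in number of peaks, with 7 GR and 9 MR CORT peaks and 4 MR washout peaks in 277 kb. Its length class averaged 2.07, 3.01 and 1.02. Efna5 had a shared intronic site at chr17:62734746-62734875, 146 kb from the start, with 20.3 for GR, 22.9 for MR and 16.2 after washout. The GRE printed above lies under it. In a coding exon 230.3 kb from the start, GR at 11.4 and MR at 20.7 shared a site that the MR washout list did not hold. No other ephrin had more than 1 peak in any list.

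Among receptors, the repulsive netrin receptors Unc5b and Unc5c had the most peaks for their family. Unc5b had 6 GR and 6 MR CORT peaks in 69.0 kb, where its class averaged 0.548 and 0.774, and 3 MR washout peaks. The strongest MR peak of any member was in its intron at chr10:60795983-60796237, with 31.0 for MR, 23.2 for GR and 12.2 for MR after washout. At 9.59 kb and 26.0 kb from the start Unc5b had shared sites as well, and the MR washout list held all 3 of its shared sites and no other site of the gene. Unc5c had 7 GR and 8 MR CORT peaks in 369.7 kb, of which 3 of each overlapped, and 2 MR washout peaks. At Unc5a, 1 site of both receptors was listed after CORT, at 8.55 for GR and 6.28 for MR.

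Both neuropilins, co-receptors of class 3 semaphorins, had peaks close to their start. Nrp1 had 4 GR and 8 MR CORT peaks and 1 MR washout peak. Its promoter held 3 of the GR and 2 of the MR peaks, the highest a GR peak of 14.2 at 0.159 kb from the start, and the single washout peak lay there too, at 10.4. Nrp2 had 3 GR and 5 MR CORT peaks, and all 3 GR peaks overlapped MR peaks. Its site at −3.13 kb, upstream of the start, had 11.4 for GR and 19.6 for MR, yet the only washout peak of Nrp2 was at a weaker site 50.3 kb inside the gene, at 6.42.

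Of the plexins, Plxna4, a receptor for class 3 and class 6 semaphorins, had 8 GR and 5 MR CORT peaks and 2 MR washout peaks in 444 kb. Its shared sites, 109 kb inside the gene with 15.3 for GR and 14.9 for MR, and just upstream of the start with 11.4 and 12, were the 2 listed after washout. Plxnc1, a receptor of Sema7a, had 2 GR and 3 MR CORT peaks, and no GR peak overlapped an MR peak. Plxnd1, a receptor of Sema3e, had a site in the intron 32.1 kb from the start with 12.1 for GR and 16.4 for MR, and 19.3 after washout. Neither Sema7a nor Sema3e themselves had a peak in any list.

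**Figure D4:**
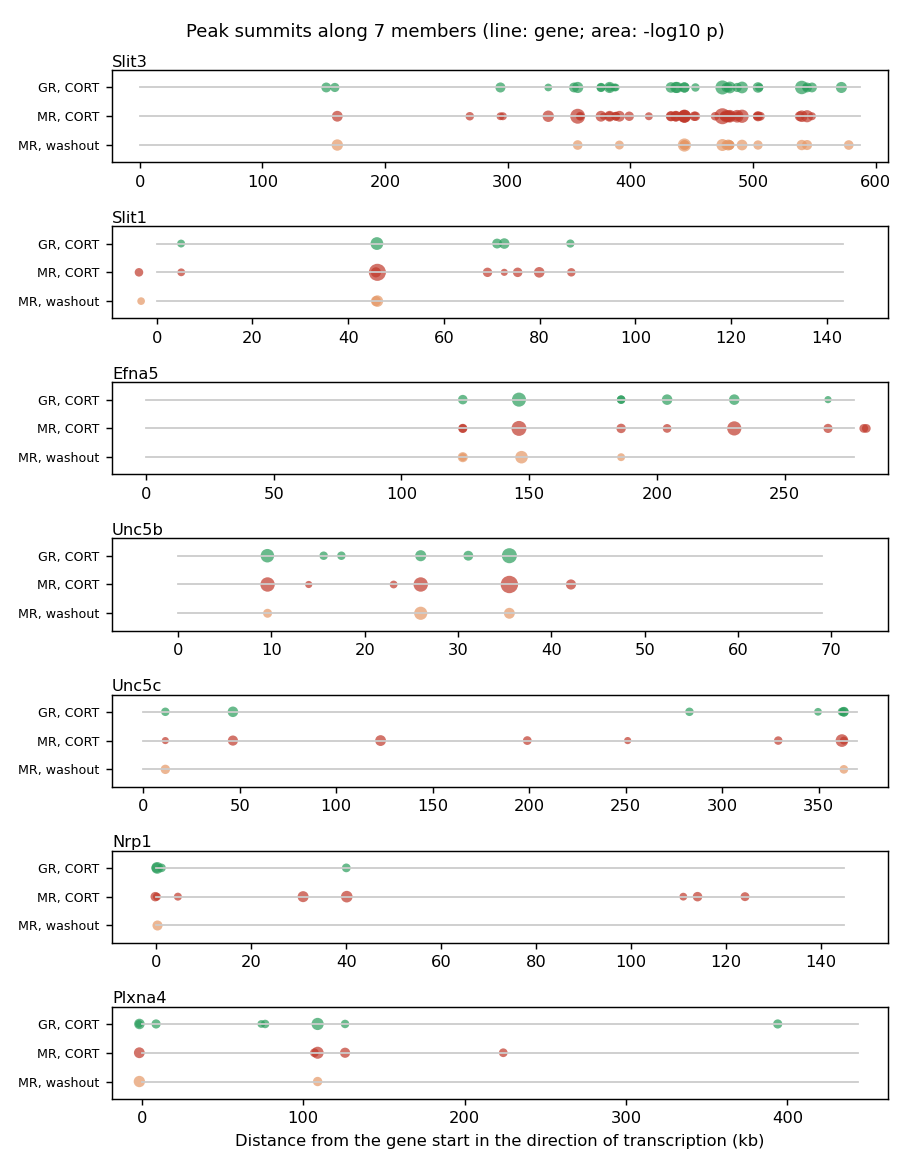
Peak summits of GR after CORT, MR after CORT and MR after washout (3 rows in each panel) along 7 members with many peaks, by distance in kb from the gene start in the direction of transcription. The line is the gene and the area of a point is proportional to the −log10 p of its peak; Slit3 summits gather between 400 and 500 kb, and the Unc5b washout peaks fall on the sites shared by GR and MR.

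Most member peaks lay in introns. Introns held 76.2% of the 101 GR, 82.6% of the 138 MR and 70.8% of the 48 MR washout peaks at members. Promoters, within 1 kb of an annotated transcript start, held 7.92%, 5.07% and 8.33%. These shares were not computed for all peaks or other genes. Taking summits inside genes or within 5 kb favours introns by construction, so they are not a trait of the members. The promoter peaks belonged to Sema4c, Sema4d, Slit2, Nrp1 and, for MR alone, Sema4b. Member peaks were about as strong as others, with a median −log10 p of 8.76 at members and 8.66 over the list for GR, 9.17 and 9.17 for MR, and 9.90 and 9.57 for MR after washout.

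GR and MR met at most of these loci. Of the GR CORT peaks at members, 58 of 101 shared 1 bp or more with an MR CORT peak, or 57.4% (47.7 to 66.6), against 61.0% of the whole list. Of the MR peaks, 67 of 138 overlapped a GR peak, or 48.6% (40.4 to 56.8), against 47.6%. Both intervals take in the share of the whole list, and both shares were nearly those of peaks of the same strength, 60.8% and 48.4%. At the shared sites the median distance between the GR summit and the MR summit was 20.5 bp. Choosing sites by overlap favours short distances by construction, and no distance over the whole lists is given beside it. In total 22 members had peaks of both receptors after CORT, and at 2 of them, Ntn1 and Plxnc1, no GR peak overlapped an MR peak.

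None of the 101 GR peaks at members overlapped a GR washout peak, which allows up to 3.66%, against 2.13% of all GR peaks. Of the MR peaks 41 of 138 overlapped an MR washout peak, or 29.7% (22.7 to 37.8), against 24.6% of all MR peaks and 25.4% of MR peaks of the same strength. The peaks that remained were the stronger ones, with a median CORT −log10 p of 13.4 against 8.17 for those that were not listed again, as over all MR peaks, where the medians were 13.4 and 8.60. Of MR peaks that overlapped a GR peak 34 of 67 remained, or 50.7% (39.1 to 62.3), and of those without one 7 of 71, or 9.86% (4.86 to 19). Over all MR peaks these shares were 40.0% and 10.5%. Strength moved with this difference, with median −log10 p values of 12 and 7.83 at members. MR peaks of the same strengths, with or without GR, remained in 36.4% and 14.9% of cases, of which the first is below the members' interval and the second inside it. The whole list departed from its strength classes in the same directions, with 33.6% and 16.4% beside its 40.0% and 10.5%. Both of these list shares, 40.0% and 10.5%, lay inside the members' intervals, so the difference is not particular to members. At members, leaving out Slit3 gave 21 of 39, or 53.8% (38.6 to 68.4), and 3 of 47, or 6.38% (2.19 to 17.2).

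**Figure D5:**
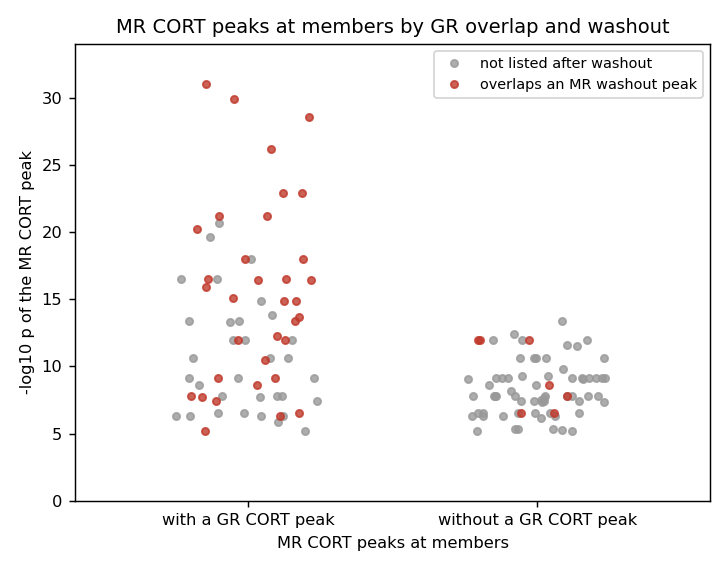
−log10 p of the 138 MR CORT peaks at members (vertical axis), split by whether a GR CORT peak overlapped them (horizontal axis, spread at random for view). Red points overlapped an MR washout peak and grey points did not; red points make up 34 of 67 on the left and 7 of 71 on the right, and the highest values are on the left.

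Conversely, most MR washout peaks at members were at sites seen after CORT, as over the whole list. Of these peaks 40 of 48 overlapped an MR CORT peak, or 83.3% (70.4 to 91.3), against 75.7% of the list, and 38 of 48 overlapped a GR CORT peak, or 79.2% (65.7 to 88.3), against 65.6%. Of the 48, 6 overlapped neither, a share that was not computed over the whole list.

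With up to 3 mismatches, GREs were less frequent at the GR CORT and MR washout peaks of members than over those lists, beyond counting error. For MR washout this no longer held without Slit3. With at most 2 or at most 4 mismatches the differences were within counting error. A GRE lay within 100 bp of the summit at 25 of 101 GR peaks, or 24.8% (17.4 to 34), against 37.7% of the GR list, and the interval leaves that share out. It also did for MR after washout, with 14 of 48, or 29.2% (18.2 to 43.2), against 45.5%. For MR after CORT it was 49 of 138, or 35.5% (28.0 to 43.8), against 39.9%, which the interval includes. Windows of the same width 1000 bp to each side of the member summits held a GRE in 9.41%, 7.29% and 14.5% of cases for GR, MR washout and MR CORT, against 14.6%, 15.3% and 15.2% of the flanks of all peaks. For GR and MR washout the flanks of members were thus low in GREs as well, with intervals of 6.10 to 14.2 and 3.58 to 14.3. With at most 2 mismatches the member shares were 7.92% for GR, 7.25% for MR and 10.4% for MR washout, against 10.5%, 11.5% and 16.0% of the lists, all inside the members' intervals of 4.07 to 14.9, 3.98 to 12.8 and 4.53 to 22.2. With at most 4 they were 77.2%, 87.7% and 87.5%, against 79.0%, 82.1% and 83.5%, so for MR the order of members and list turned round, and the intervals of 68.1 to 84.3, 81.2 to 92.2 and 75.3 to 94.1 again held the list shares.

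The AP-1 element, the site of the FOS and JUN family, was counted as TGANTCA without mismatch on both strands. It lay within 100 bp of the summit at 14.9% of GR (9.21 to 23.1) and 15.2% of MR peaks at members (10.2 to 22.1), against 11.2% and 10.1% of the lists. At the MR washout peaks of members it was found at 13 of 48, or 27.1% (16.6 to 41.0), against 11.7% of the list, and 5.21% of their flanks. Without Slit3 this share was 7 of 30, or 23.3% (11.8 to 40.9). A match of letters does not show that the factor was bound.

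Border pairs, the positions on opposite strands at which the exonuclease stopped, gave a finer but sparser view. Of the 3285 MR border pairs after CORT 22 lay at members, of which 6 at Slit3, 5 at Unc5b and 3 at Efna5. After washout 7 of 1670 MR pairs did, and after vehicle 3 of 1332, of which 2 at Slit3. The GR lists held 1 member pair after CORT, from a deposited list of 139 pairs, and none after vehicle or washout. That list is the shortest of the 9 and lacks the p-values of the others, so its count is not comparable with theirs. Input chromatin gave 17 of 6351, 20 of 5767 and 11 of 5509 pairs at members for vehicle, CORT and washout. These were 0.268%, 0.347% and 0.200% of the input lists, against 0.225%, 0.670% and 0.419% of the MR lists. Input pairs occur at members too, so a border pair at a member is not by itself a sign of receptor binding. None of the member peaks overlapped an input border pair. A border pair lay in 13 of 138 MR CORT peaks at members, or 9.42% (5.59 to 15.5), against 10.4% of the list.

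Other genes of axon guidance were taken from a list of 61 that are not members. It holds further cues and receptors such as Draxin, Rgma, Boc and Dscam, adhesion molecules, adaptors, exchange factors and cytoskeletal effectors. A GR CORT peak was listed at 34 of them, or 55.7% (43.3 to 67.5), where genes of their lengths gave 31.3%, and an MR CORT peak at 41, or 67.2% (54.7 to 77.7), against 37.0%. After washout 27 had an MR peak, or 44.3% (32.5 to 56.7), against 21% by length, and 3 had a GR peak, or 4.92% (1.69 to 13.5), against 1.56%. After vehicle 1 had a GR peak, or 1.64% (0.290 to 8.72), against 0.163%, and 0 had an MR peak (0 to 5.92), against 0.200%. The share by length lay below the interval in both CORT lists, and also in both washout lists and the GR vehicle list. In the MR vehicle list it lay inside. The washout cells had also been given CORT, and the GR washout and GR vehicle shares rest on very few genes. Whether the surplus depends on CORT was not tested. The most peaks were at Vav2, an exchange factor, with 12 GR and 15 MR CORT peaks, and at Kalrn, another exchange factor, with 11 and 13. Srgap1, which acts downstream of Robo receptors, had 8 and 12, and Ablim1, an actin-binding protein, had 8 and 10. Mical2, Srgap3 and Trio followed with 16 CORT peaks each.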

How the data were processed

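The authors trimmed the reads, aligned them to mm10 (GRCm38) with Bowtie2, removed PCR duplicates by random barcode, combined the 3 replicates and called peaks with MACS2 2.1.1.20160309 against input at a false discovery rate of 0.05, and border pairs with MACE. The deposited values are a score (10 times the −log10 q, whole part), the −log10 p and the −log10 q of each peak, the last under a heading for fold enrichment, and for border pairs a p-value from the authors, which the GR CORT list lacks and which was not used. Sequencing depth cannot be read from these lists, which give no read numbers.

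Members, gene lists and comparisons were chosen with earlier results of these data known. Unc5 was read as Unc5a to Unc5d. Genes were the protein-coding genes of GENCODE M21 on chromosomes 1 to 19, X and Y. A length class share is the mean over members of the share in their class, and likewise for 20 classes of −log10 p. Named members were the 12 with most CORT peaks (13 with a tie), those at the 8 strongest peaks of each receptor and the 8 with most washout peaks. Placing, overlap and motif counts were tested on simulated data. Python 3.11.15, pandas 2.3.3, scipy 1.17.1, pysam 0.24.0 and matplotlib 3.10.9 were used.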

Additional observations from a re-analysis of the deposited data

How the results depend on the processing

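Other distances, whole peaks in place of summits, the nearest gene alone, leaving out peaks at input border pairs, leaving out Unc5a to Unc5d and 10 length classes kept every count of members within 1.5 times and every share by length within its interval, as did the shorter MR list. Requiring a −log10 q of at least 5 left 16 members with a GR CORT peak, with 16.9% by length, and lowered the peaks at members to 47 for GR CORT, 75 for MR CORT and 26 for MR washout. Shared sites at members fell to 40.6% of GR and 29.7% of MR peaks with summits within 50 bp, and to 47.5% of GR peaks with the strongest MR peaks alone, as many as GR had. GRE shares of GR, MR and MR washout peaks were 7.92%, 7.25% and 10.4% with at most 2 mismatches, and 77.2%, 87.7% and 87.5% with at most 4. Within 50 bp they were 12.9% for GR and 25.4% for MR, and within 200 bp 38.6% and 47.8%. A wider window or looser match raises a share by construction. Leaving out the peaks at Slit3, chosen after seeing the data, kept the overlap, washout and GRE shares within their intervals. The interval of the MR washout GRE share then widened to 16.7 to 47.9 and included the 45.5% of the list. No paired analysis was possible because each condition had 1 list of combined replicates, and no replicate could be left out for the same reason. The lists give no depth, which limits any comparison of weak peaks between them.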
